A study of Mus musculus with 96 samples.

Results

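Cells of the renal medulla live in a salty and urea-rich interstitium and hold their volume by accumulating organic osmolytes. The principal ones are sorbitol, myo-inositol, betaine, taurine and glycerophosphocholine. Nfat5 (TonEBP), a transcription factor that responds to tonicity, is known to bind tonicity-responsive enhancer elements (TonE) near the genes for the osmolyte carriers and for aldose reductase. The organic osmolyte genes described here are 8 of the 54532 genes in the deposited table. They were chosen by symbol as Nfat5, the carriers Slc6a12 (betaine), Slc5a3 (myo-inositol), Slc6a6 (taurine) and Slc38a2 (neutral amino acids), and 3 enzymes. The enzymes are aldose reductase (Akr1b3), which makes sorbitol from glucose, sorbitol dehydrogenase (Sord), which turns sorbitol into fructose, and the glycerophosphocholine phosphodiesterase Gpcpd1, which breaks glycerophosphocholine down. The rule that picks them uses symbols and no measured value, although earlier results of these data were known when the genes were chosen.

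RNA was sequenced from glomeruli and 14 tubule segments dissected by hand from kidneys of male C57BL/6 mice aged 6 to 8 weeks that drank freely and carried no stated allele or treatment. Cortical segments comprised PTS1 and PTS2 (S1 and S2 of the proximal tubule), CTAL (cortical thick ascending limb), CCD (cortical collecting duct), CNT (connecting tubule) and DCT (distal convoluted tubule). The outer medullary segments were the S3 proximal tubule (PTS3), the descending thin limbs of short and long loops (DTL1, DTL2), the medullary thick ascending limb (MTAL) and the outer medullary collecting duct (OMCD). The inner medullary segments were the long descending limb (DTL3), the thin ascending limb (ATL) and the inner medullary collecting duct (IMCD). The glomerulus was kept outside the zones, and the zone of DTL1 comes from textbook anatomy and not from the labels. The 93 samples, 87 of tubule and 6 of glomerulus, were averaged over pieces with the same mouse number and segment. This gave 53 such units, called mice below, with 5 in PTS2, CTAL and CCD, 4 in ATL and OMCD, and 3 in each other group.

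Levels are in TPM, a unit scaled for transcript length and for the total of each library, so that levels of different genes can be compared on this scale. TPM keep no read depth, so depth is unknown and no counting interval can be given. All 8 genes passed the filter of at least 1 TPM in at least 3 mice, as did 33793 genes in all. Differences were tested with limma on log2(TPM + 1) over these genes. A gene was called at a Benjamini-Hochberg adjusted p under 0.05 and a log2 difference of at least 1. The p-values of zone comparisons measure the spread of mice within segments, and segments are not replicates of a zone.

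The glomerulus, PTS1, IMCD, DTL1, ATL and DTL3 carried the markers of their labels. Podxl stood at 2058 to 2948 TPM in the glomerulus, Slc5a2 at 2473 to 3141 TPM in PTS1, Slc14a2 at 1401 to 2681 TPM in IMCD and at 4052 to 9809 TPM in DTL1, Cldn10 at 3008 to 4253 TPM in ATL, and Aqp1 at 11152 to 12081 TPM in DTL3. An exception was Slc7a13, taken as a PTS3 marker, which was higher in PTS2 (1942 to 2090 TPM) than in PTS3 (1277 to 1763 TPM). Markers of the other segments are not given, apart from Umod and Slc12a1 of the thick limb. These summed to 21433 to 29586 TPM in MTAL and 40010 to 45349 TPM in CTAL. They also reached 1379 to 2245 TPM in DCT, 188 to 330 TPM in DTL3 and 81 to 394 TPM in DTL1. The part of thick limb cells in the Slc5a3 levels of those segments was not tested. Libraries differed in background. Background was gauged by 1979 odorant and vomeronasal receptor genes, and any use of them by kidney cells was not examined. The number reaching 1 TPM was 753 to 925 in DTL1 mice, 403 to 898 in glomeruli and 504 to 556 in DTL3. It was 274 to 389 in DTL2, 76 to 253 in OMCD and 3 to 25 in IMCD. It was at most 31 in any mouse of the remaining segments other than ATL. The ATL libraries stood apart from each other: mouse 2 had 33 such genes and mouse 3 had 20, against 601 in mouse 4 and 703 in mouse 6. Summed TPM of 6 endothelial genes ran from 2820 to 3753 in DTL1, from 1042 to 1922 in DTL2, from 655 to 1619 in DTL3 and from 21.6 to 304.4 in IMCD. In tubule pieces, fewer cells of a type and less RNA per cell cannot be told apart.

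All 8 genes differed among the 15 groups by limma's moderated F-test, with adjusted p from 3.36e-11 for Gpcpd1 to 2.19e-34 for Sord. This is also true of 93.9% of all genes tested. What separated the members was where along the nephron each was high. By group mean, Nfat5 and Slc6a12 were highest in DTL3 and Akr1b3 in ATL, Sord in PTS1, Slc5a3 in MTAL, Slc6a6 in DTL1, Slc38a2 in DTL2 and Gpcpd1 in the glomerulus.

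**Figure D1:**
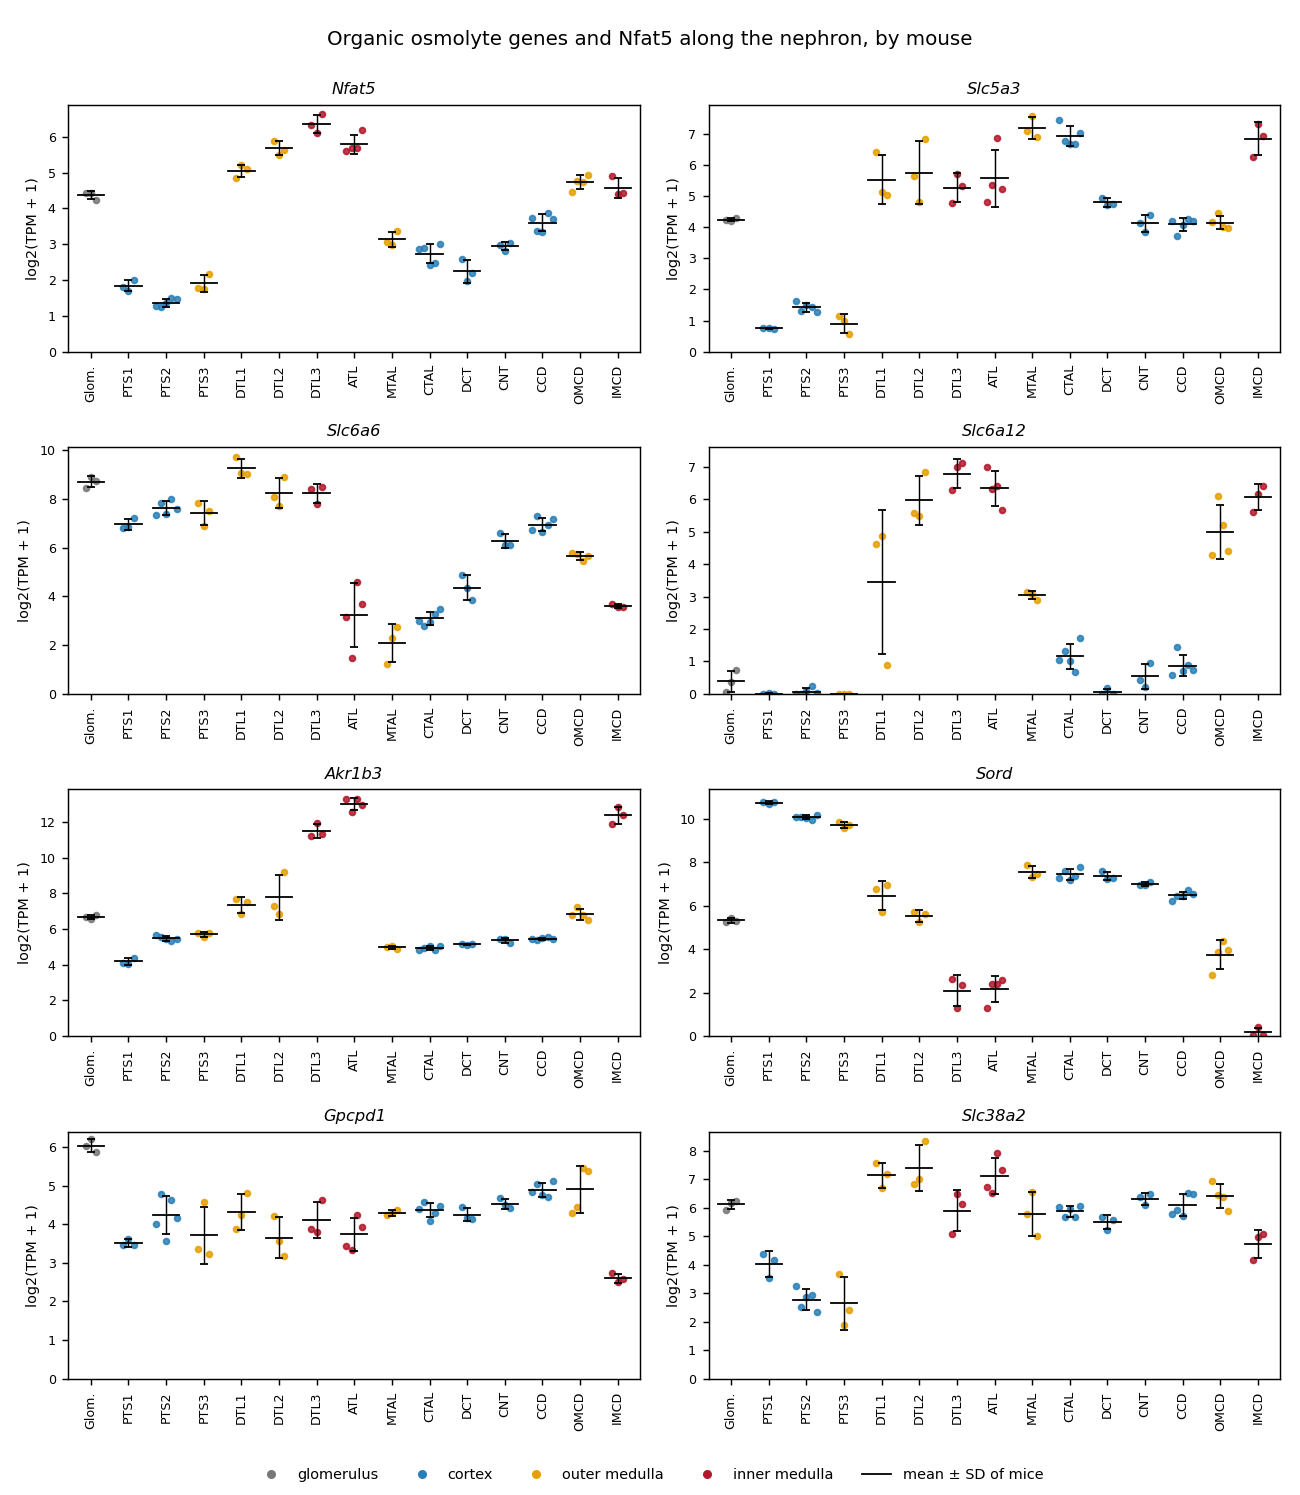
Level of each of the 8 genes as log2(TPM + 1) in the 15 groups, ordered along the nephron; each point is 1 mouse (pieces averaged), coloured by zone, with the mean and SD of the mice. Akr1b3 and Sord run in opposite directions, Slc6a12 is near 0 in the proximal tubule and DCT, and Gpcpd1 is lowest in IMCD.

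Nfat5 was highest in DTL3, with 80.0, 68.2 and 97.7 TPM in the 3 mice. The ATL mice stood at 47.5, 50.3, 50.2 and 71.4 TPM and the DTL2 mice at 58.0, 44.4 and 48.9 TPM. In order of group means, DTL3 exceeded ATL, while ATL and DTL2 did not differ by limma, whose spread is pooled over the 15 groups. The next step down led to DTL1 (28.1, 35.7 and 33.0 TPM), OMCD (20.97, 26.3, 25.7 and 29.6 TPM), IMCD (28.7, 20.2 and 20.4 TPM) and the glomerulus (18.0 to 20.6 TPM), and neighbours among these 4 groups did not differ. CCD followed with 9.10 to 13.8 TPM, and all OMCD mice lay above all CCD mice. The proximal tubule had the least, from 1.35 to 1.81 TPM in the 5 PTS2 mice.

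Between zones, Nfat5 was higher in the inner medulla than in the cortex by 3.11 (SE 0.086) on the log2 scale and higher in the outer medulla than in the cortex by 1.63 (SE 0.074), with adjusted p of 1.57e-31 and 1.18e-22 from limma. Receptor-gene background differed between zones as well. At most 31 such genes reached 1 TPM in any cortical mouse. DTL3 had 504 to 556, ATL 20 to 703, DTL1 753 to 925, DTL2 274 to 389 and OMCD 76 to 253. IMCD (3 to 25), PTS3 (2 to 5) and MTAL (1 to 2) lay within the cortical range. The part of this background in the Nfat5 differences was not tested. Along the collecting duct Nfat5 was higher in OMCD than in CCD by 1.12 (SE 0.15, adjusted p = 2.29e-07). That call is close to the threshold of size, since it became 0.93 after rescaling by the median ratio, 0.96 after quantile normalization and 0.91 with a pseudocount of 5. IMCD did not exceed OMCD in Nfat5, at -0.18 (SE 0.17, adjusted p = 0.451). IMCD exceeded CCD by 0.94 (SE 0.16, adjusted p = 8.09e-06), under the size threshold, and leaving out CCD mouse 4, IMCD mouse 2 or IMCD mouse 3 brought this to 1.01, 1.02 or 1.01. It was also called after rescaling by the median ratio (1.07) and after quantile normalization (1.25). DTL3 exceeded DTL2 in Nfat5 by 0.69 (SE 0.18, adjusted p = 0.00496), also under the size threshold.

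The betaine carrier Slc6a12 (BGT1) was near 0 in most cortical segments and highest in DTL3, ATL, IMCD and DTL2. Its RefSeq start sites come with 5 windows of 300 bases, and 1 of the 5 held a match to the TonE consensus, on the strand of the gene, between 75 and 65 bases before the start. The 250 bases before that start, at chr6:121342324-121342573 on the plus strand of GRCm38.p6, are shown because they hold this match, which is in capitals.
Slc6a12 promoter: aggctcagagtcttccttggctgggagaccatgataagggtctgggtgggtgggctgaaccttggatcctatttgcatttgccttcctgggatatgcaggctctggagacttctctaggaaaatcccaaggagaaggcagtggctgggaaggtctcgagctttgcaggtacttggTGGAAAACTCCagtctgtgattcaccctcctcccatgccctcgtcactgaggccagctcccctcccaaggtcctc
Both strands were searched. A match to the TonE consensus occurred in 4.96% of all 32851 RefSeq promoter windows, and its shorter core TGGAAA in 21.4% of them. The windows of Nfat5, Slc5a3, Sord and Slc38a2 held neither, which says only that these letters are not in those windows. Akr1b3, Slc6a6 and Gpcpd1 were not matched in that table. A match of letters is a description and no evidence of binding.

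Slc6a12 transcript stood at 76.5, 124.9 and 137.9 TPM in DTL3, at 125.6, 77.7, 83.2 and 49.5 TPM in ATL, at 48.2, 69.8 and 84.5 TPM in IMCD and at 46.6, 43.7 and 112.6 TPM in DTL2. These 4 groups and OMCD (18.3, 67.2, 35.8 and 20.3 TPM) were neighbours in order and did not differ one from the next. The MTAL mice had 7.86, 7.47 and 6.45 TPM and the CTAL mice 0.60 to 2.31 TPM, so that every MTAL mouse lay above every CTAL mouse. CCD had 0.51 to 1.71 TPM, and the PTS1, PTS2, PTS3 and DCT mice between 0 and 0.19 TPM, with PTS3 listed at 0 in all 3 mice. DTL1 was divided, with 23.8 and 27.9 TPM in mice 1 and 3 and 0.86 TPM in mouse 5.

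Slc6a12 was higher in inner medulla than in cortex by 5.95 (SE 0.24) and in outer medulla than in cortex by 3.04 (SE 0.21), with adjusted p of 2.32e-25 and 1.34e-16 from limma. OMCD exceeded CCD by 4.11 (SE 0.42, adjusted p = 2.73e-10), a 40.5-fold ratio of mean TPM, with no overlap of mice. MTAL exceeded CTAL by 1.87 (SE 0.46, adjusted p = 0.00528), which with a pseudocount of 5 became 0.95 (adjusted p = 0.0789). From OMCD to IMCD the difference was 1.08 (SE 0.48, adjusted p = 0.0801) and did not pass the test. That comparison passed without OMCD mouse 2 (1.46, adjusted p = 0.0202) and without DTL1 mouse 5 (1.08, adjusted p = 0.00576). It also passed after rescaling by the median ratio (1.40, adjusted p = 0.0168), after quantile normalization (1.49, adjusted p = 0.0205) and without the glomerulus and DTL1 (1.08, adjusted p = 0.00601). DTL1 and the glomerulus are in neither group compared, so leaving them out moved only the pooled spread and the adjustment.

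The myo-inositol carrier Slc5a3 (SMIT1) did not follow the corticomedullary axis. Its highest levels were 135.0, 192.3 and 118.0 TPM in MTAL, 173.7, 109.8, 102.8, 101.2 and 129.3 TPM in CTAL, and 76.6, 161.3 and 121.6 TPM in IMCD. These 3 groups overlapped and did not differ from each neighbour in order, although CTAL is cortical. The OMCD (14.9 to 20.9 TPM) and CCD (12.2 to 18.4 TPM) mice overlapped at about one level, and the proximal segments had 0.47 to 2.11 TPM. The thin limbs lay between and were uneven. ATL mouse 4 had 117.7 TPM against 27.3 to 40.0 TPM in the other 3, DTL2 mouse 3 had 114.0 TPM against 49.1 and 26.9 TPM, and DTL1 mouse 1 had 85.6 TPM against 34.1 and 31.8 TPM.

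IMCD exceeded OMCD in Slc5a3 by 2.64 (SE 0.34, adjusted p = 2.21e-08 from limma), a 7.06-fold ratio of means, and no IMCD mouse overlapped an OMCD mouse. OMCD minus CCD was 0.06 (SE 0.30, adjusted p = 0.910) and MTAL minus CTAL was 0.26 (SE 0.33, adjusted p = 1). For the zones, inner medulla minus cortex was 2.19 (SE 0.17, adjusted p = 3.09e-15). This call rests on the low proximal segments, since leaving out PTS1, PTS2 and PTS3 reduced the difference to 0.90 (adjusted p = 4.43e-05). Outer medulla minus cortex was 1.02 (SE 0.15, adjusted p = 1.23e-07), just past the size threshold, and lost its call without any 1 of DTL2 mouse 3 (0.91), DTL1 mouse 1 (0.93), MTAL mouse 2 (0.98), PTS3 mouse 1 (0.99), CNT mouse 2 (0.99) or OMCD mouse 2.

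Slc5a3 shares 159 exonic bases (1.5% of its exonic length) with Mrps6, a mitochondrial ribosomal protein gene on the same strand, and with the annotated model Gm49711. Reads from these bases cannot be assigned to one gene, so part of the Slc5a3 value is uncertain. The RefSeq starts of Slc5a3 and Mrps6 lie 14 bases apart on chromosome 16. The 250 bases before the Slc5a3 start, chr16:92058072-92058321 on the plus strand of GRCm38.p6, are shown because both genes start at this stretch; nothing is in capitals, as no TonE match was found.
Slc5a3 and Mrps6 promoter: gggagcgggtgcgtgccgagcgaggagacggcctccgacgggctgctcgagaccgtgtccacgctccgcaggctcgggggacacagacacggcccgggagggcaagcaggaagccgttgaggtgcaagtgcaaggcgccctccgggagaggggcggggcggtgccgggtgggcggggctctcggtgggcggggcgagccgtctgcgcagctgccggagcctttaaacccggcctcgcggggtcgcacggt
Mrps6 was far more abundant, at 2751, 3552 and 2224 TPM in MTAL, 3183, 2617 and 2410 TPM in IMCD, 1598 to 1982 TPM in CTAL and 55.7 to 59.3 TPM in PTS1. Over the 15 group means of log2(TPM + 1) the Pearson r between the genes was 0.96, where the points share libraries and the common bases. The mean log2(TPM + 1) of Slc5a3 minus that of Mrps6 ran from -3.50 in DTL2 to -4.56 in CNT over the groups outside the proximal tubule. In the proximal segments Slc5a3 was so low that the added 1 bears on this difference, and no value is read from it there. How much of the common pattern comes from the shared bases was not tested.

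**Figure D2:**
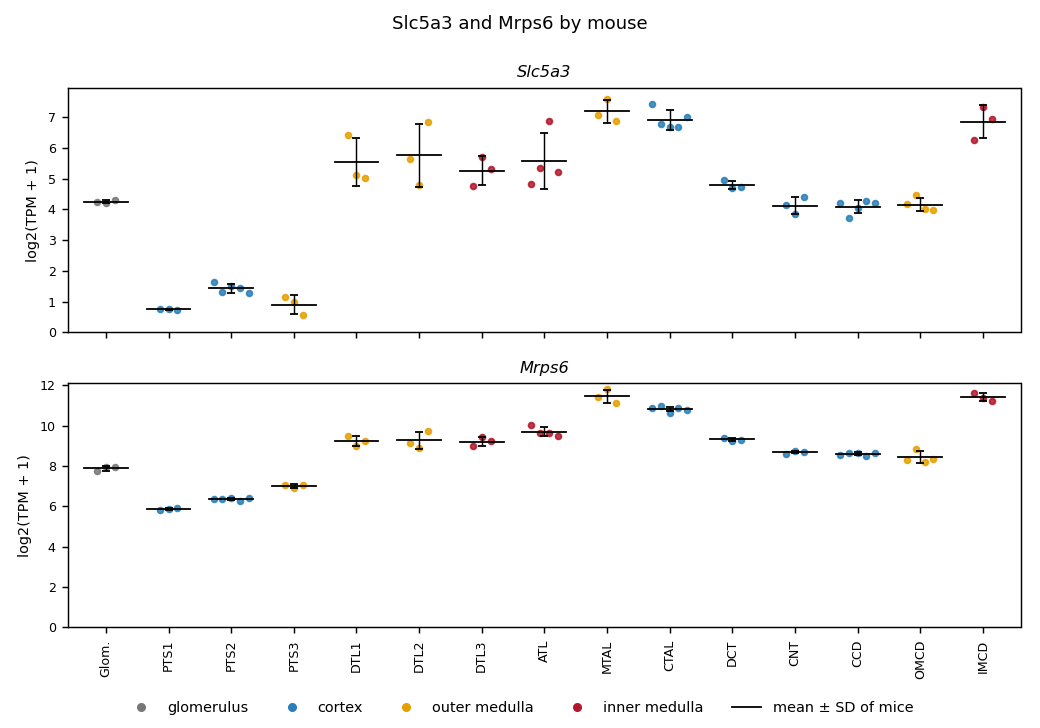
Slc5a3 and Mrps6 as log2(TPM + 1) by group; each point is 1 mouse, coloured by zone, with the mean and SD. Both genes peak in MTAL, CTAL and IMCD and are lowest in the proximal tubule.

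The taurine carrier Slc6a6 (TauT) was highest in DTL1, at 835.6, 531.4 and 518.0 TPM, followed by the glomerulus at 351.0, 479.4 and 431.9 TPM. DTL2 (272.6, 207.1 and 484.0 TPM) and DTL3 (337.8, 220.7 and 361.6 TPM) came next and overlapped each other. Their difference was -0.00 (SE 0.41, adjusted p = 1), so the long descending limb showed no detected change of Slc6a6 between outer and inner medulla. The proximal segments ranged from 110.8 to 258.5 TPM. DTL1, glomerulus, DTL2 and DTL3 are also the groups with high endothelial markers, and the part of those cells in the Slc6a6 level was not tested.

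Slc6a6 was lower at each step down the collecting duct. The CCD mice had 103.9, 156.5, 99.8, 120.9 and 142.3 TPM, the OMCD mice 54.7, 53.1, 42.6 and 49.3 TPM, and the IMCD mice 12.0, 10.9 and 10.9 TPM. No 2 of these groups overlapped. OMCD was below CCD by a log2 difference of -1.29 (SE 0.34, adjusted p = 0.00371 from limma) and IMCD below OMCD by -2.08 (SE 0.38, adjusted p = 2.32e-05). The mean was 11.1-fold lower in IMCD than in CCD. ATL (7.80, 1.78, 23.1 and 11.9 TPM) was 27.5-fold below DTL3 on the mean, at a log2 difference of -5.01 (SE 0.38, adjusted p = 1.45e-14). This was the largest difference of any of the 8 genes between these thin limbs. It was -5.47 without ATL mouse 4 and -4.43 without ATL mouse 3. MTAL, at 1.31, 3.90 and 5.65 TPM, had the least. Slc6a6 overlaps an antisense model, Gm44981, over 117 exonic bases (1.4%), and the cDNA kit does not mark strand, so reads there cannot be told apart.

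For the zones, Slc6a6 in inner medulla minus cortex was -0.86 (SE 0.19, adjusted p = 0.000126), short of the size threshold. It was called at -1.36 after rescaling by the median ratio, at -1.26 with the glomerulus counted as cortical, at -1.16 with ATL mice 2 and 3 alone, at -1.04 with mice weighted equally and at -1.01 without ATL mouse 4. Outer medulla minus cortex was 0.63 (SE 0.16, adjusted p = 0.000883) and turned to -0.06 when DTL1 was left out, while without the proximal segments it was called at 1.12 (adjusted p = 2.17e-06).

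The sorbitol pair gave the widest range of the members. Aldose reductase, Akr1b3, reached 9832.5, 6102, 10007.6 and 7795 TPM in the 4 ATL mice, 3774, 7228 and 5293 TPM in IMCD, and 2352, 3878 and 2573 TPM in DTL3. These groups differed from each neighbour in order. ATL exceeded IMCD by 0.66 (SE 0.27, adjusted p = 0.0485 from limma) and IMCD exceeded DTL3 by 0.87 (SE 0.29, adjusted p = 0.0116). Both differences were under the size threshold, and the mice overlapped. The next groups were DTL2 (153.9, 114.0 and 594.0 TPM), DTL1 (207.2, 114.5 and 178.4 TPM), OMCD (108.9, 150.8, 108.3 and 90.5 TPM) and the glomerulus (93.7 to 108.2 TPM), which did not differ one from the next. The PTS3 mice had 46.2 to 53.7 TPM. All cortical segments and MTAL lay between 15.7 and 48.9 TPM, with the 5 CCD mice at 40.2 to 45.6 TPM and the 3 MTAL mice at 28.4 to 32.0 TPM. No inner medullary mouse overlapped a mouse of any other zone.

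Akr1b3 was higher in inner medulla than in cortex by 7.19 (SE 0.14, adjusted p = 9.07e-38 from limma) and higher than in outer medulla by 5.77 (SE 0.14, adjusted p = 2.89e-32). Outer medulla minus cortex was 1.42 (SE 0.12, adjusted p = 4.86e-14). Along the collecting duct the mean was 2.67-fold higher in OMCD than in CCD and 47.4-fold higher in IMCD than in OMCD, at log2 differences of 1.37 (SE 0.24, adjusted p = 2.56e-05) and 5.52 (SE 0.27, adjusted p = 2.11e-21). DTL3 exceeded DTL2 by 3.72 (SE 0.29, adjusted p = 6.18e-14), which was 4.44 without DTL2 mouse 3 and 3.26 without DTL2 mouse 2. The high DTL2 mouse 3 was high in all 3 of its pieces (632.4, 440.3 and 709.5 TPM). This mouse was the highest of the DTL2 mice for 5 of the 8 members. In the thick limb, MTAL minus CTAL was 0.02 (SE 0.26, adjusted p = 1).

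Sorbitol dehydrogenase, Sord, ran the other way. PTS1 mice had 1744, 1602 and 1746 TPM, PTS2 mice 964.9 to 1155 TPM and PTS3 mice 908.9, 752.6 and 822.1 TPM. MTAL (232.6, 157.7 and 174.3 TPM), CTAL (143.5 to 219.3 TPM), DCT (147.9 to 189.6 TPM), CNT (121.3 to 135.7 TPM) and CCD (72.7 to 102.7 TPM) formed the middle of the order. OMCD had 5.99, 13.8, 19.5 and 14.5 TPM, DTL3 5.23, 1.42 and 4.07 TPM, ATL 1.42, 4.34, 4.26 and 4.98 TPM, and IMCD 0.05, 0.35 and 0.05 TPM. Neither DTL3 nor ATL overlapped OMCD, and all IMCD mice lay below every other mouse. DTL1, at 106.0, 50.5 and 123.0 TPM, was also the thin limb with the most proximal tubule transcript (5 genes summing to 1230 to 4765 TPM), whose part in its Sord level was not tested.

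Sord in inner medulla minus cortex was -6.70 (SE 0.14, adjusted p = 2.45e-36 from limma). It was lower in OMCD than in CCD by -2.73 on the log2 scale (SE 0.24, adjusted p = 4.31e-12), lower in IMCD than in OMCD by -3.57 (SE 0.27, adjusted p = 1.05e-14) and lower in DTL3 than in DTL2 by -3.36 (SE 0.29, adjusted p = 2.24e-12). MTAL minus CTAL was 0.10 (SE 0.26, adjusted p = 1). Within each mouse, the log2(TPM + 1) of Akr1b3 minus that of Sord does not depend on how a library is scaled, apart from the pseudocount. Its mean was -6.54 ± 0.15 in PTS1 (SD, n = 3), -1.01 ± 0.15 in CCD (n = 5), 3.08 ± 0.73 in OMCD (n = 4), 9.40 ± 1.10 in DTL3 (n = 3) and 10.85 ± 0.82 in ATL (n = 4). In DTL3 and ATL the added 1 bears on the low Sord values, and in IMCD, with Sord at 0.05 to 0.35 TPM, it sets the Sord term, so that only the sign is read there. Every tubule mouse of the cortex, with PTS3 and MTAL, was below 0, and every mouse of DTL1, DTL2, OMCD and the inner medulla was above 0.

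**Figure D3:**
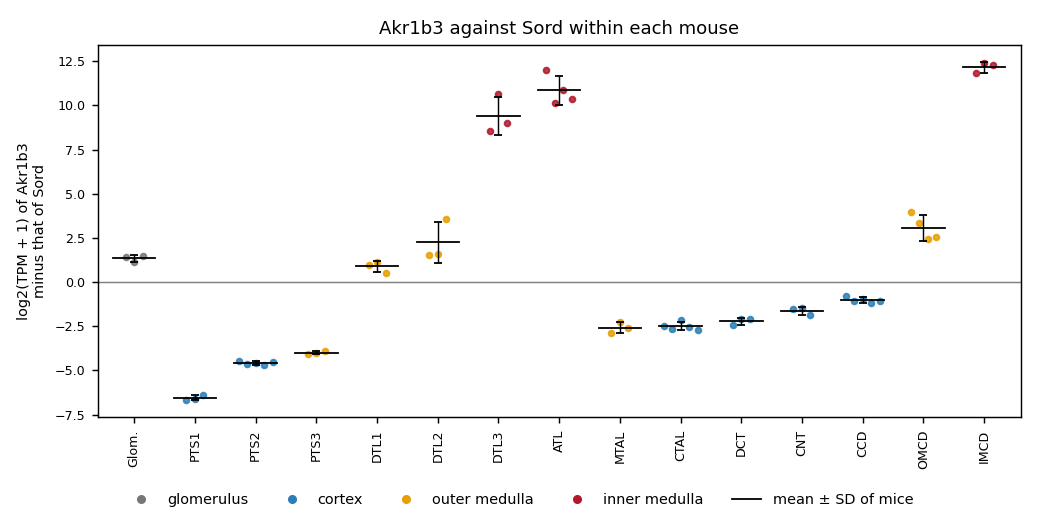
Difference between log2(TPM + 1) of Akr1b3 and that of Sord in each mouse, by group; points are mice coloured by zone, bars the mean and SD. Values lie below 0 in all cortical segments, PTS3 and MTAL, with -6.54 in PTS1, and above 0 in the other groups; in IMCD the added 1 sets the Sord term.

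Gpcpd1, in which the F-test p was largest, was highest in the glomerulus. Its glomerular mice had 64.4, 73.3 and 57.7 TPM, above every tubule mouse. From OMCD down to PTS1 no neighbour in the order differed, and the run ended at PTS1 with 10.1, 11.3 and 9.95 TPM. IMCD was lowest, at 5.66, 4.67 and 4.98 TPM, below every other mouse. IMCD minus OMCD was -2.31 (SE 0.28, adjusted p = 6.79e-09 from limma) and IMCD minus CCD -2.30 (SE 0.27, adjusted p = 1.75e-09). OMCD was split, with 18.6 TPM in mouse 1 and 21.02 TPM in mouse 2 but 43.3 TPM in mouse 3 and 40.9 TPM in mouse 4, and its difference from CCD was 0.01 (SE 0.25, adjusted p = 1). Inner medulla minus cortex was -0.82 (SE 0.14, adjusted p = 3.01e-06) and did not reach the size threshold. Gpcpd1 was called lower there after rescaling by the median ratio (-1.30), after quantile normalization (-1.19), with the glomerulus counted as cortical (-1.06) and without the proximal segments (-1.03).

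Slc38a2 (SNAT2), a system A amino acid carrier known to be induced by hypertonicity, was highest in DTL2 (112.5, 129.2 and 323.6 TPM), DTL1 (188.4, 101.7 and 144.5 TPM) and ATL (105.7, 90.5, 240.9 and 159.6 TPM). IMCD had 17.0, 30.2 and 32.4 TPM, below every mouse of OMCD (121.6, 86.0, 82.4 and 58.45 TPM) and of CCD (51.3 to 91.2 TPM). The proximal segments had the least, from 2.64 to 20.0 TPM. IMCD minus OMCD was -1.69 (SE 0.37, adjusted p = 0.000313 from limma) and IMCD minus ATL -2.40 (SE 0.37, adjusted p = 1.05e-06). DTL3 minus DTL2 was -1.49 (SE 0.40, adjusted p = 0.00523), a call lost without DTL2 mouse 3 (-1.01, adjusted p = 0.0981) or without DTL3 mouse 1 (-1.08, adjusted p = 0.0715). Inner medulla minus outer medulla was 0.05 (SE 0.20, adjusted p = 0.891). Inner medulla minus cortex was 0.82 (SE 0.19, adjusted p = 0.000146), and it was -0.03 when the proximal segments were left out.

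Counted together by zone, 4 of the 8 genes were higher (Nfat5, Slc5a3, Slc6a12 and Akr1b3) and 1 lower (Sord) in inner medulla than in cortex, where 21.7% of all genes tested were called (16.6% higher and 5.11% lower). The median log2 difference was 1.51 over the 8 members and 0.45 over all genes. The same 5 genes were called in the same directions in outer medulla against cortex, where 9.63% of all genes were called (8.08% higher and 1.55% lower). Of these, Slc5a3 lost its call there after rescaling by the median ratio (0.74), after quantile normalization (0.83), without the proximal segments (0.68), without DTL1 (0.81), with a pseudocount of 5 (0.81), with the glomerulus counted as cortical (0.94) and with mice weighted equally (0.87). In inner against outer medulla 4 were higher and 2 lower (Sord and Slc6a6), against 8.00% of all genes called (3.68% higher and 4.32% lower). Without the proximal segments the inner against outer differences of Slc5a3 (0.22) and Nfat5 (0.92) were not called. Without DTL1 that of Slc6a6 (-0.80) was not called. The inner against outer difference of Slc5a3 also lost its call with a pseudocount of 5 (0.84). Of the scalings tried, rescaling by the median ratio moved the all-gene median in inner medulla minus cortex to 0.27 and quantile normalization to 0.07, and under both the 5 members kept their calls in that comparison. Gpcpd1 was called lower in addition under both, and Slc6a6 under the median ratio. Receptor-gene background was also unequal between the zones, and its part in the zone calls of the members was not tested.

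Parts of 1 tubule type in neighbouring zones were compared next. In the collecting duct, OMCD against CCD gave 3 members higher (Nfat5, Slc6a12 and Akr1b3) and 2 lower (Slc6a6 and Sord), where 12.1% of all genes were called (10.4% higher and 1.73% lower). Between these segments, the endothelial sum was 374.7 to 500.2 TPM in OMCD and 126.5 to 216.3 TPM in CCD, the proximal tubule sum 16.3 to 28.3 TPM and 115.2 to 559.9 TPM, and the receptor genes 76 to 253 and 1 to 2. Their part in the 5 calls was not tested. IMCD against OMCD gave 2 higher (Slc5a3 and Akr1b3) and 4 lower (Slc6a6, Sord, Gpcpd1 and Slc38a2), where 18.6% of all genes were called (3.40% higher and 15.2% lower). The summed markers of 6 leukocyte genes were 4.75 to 4.77 TPM in IMCD and 111.7 to 510.7 TPM in OMCD, and those of 6 endothelial genes 21.6 to 304.4 TPM and 374.7 to 500.2 TPM. The proximal tubule sum was 0.28 to 2.76 TPM in IMCD and 16.3 to 28.3 TPM in OMCD. The part of these markers in the lower Slc6a6, Sord, Gpcpd1 and Slc38a2 of IMCD was not tested. IMCD against CCD gave 3 higher and 4 lower, with 16.3% of all genes called (6.22% higher and 10.1% lower). The leukocyte sum was 4.75 to 4.77 TPM in IMCD and 136 to 347 TPM in CCD. The proximal tubule sum was 0.28 to 2.76 TPM in IMCD and 115.2 to 559.9 TPM in CCD. Their part in the 4 lower members was not tested. In the descending limb, DTL3 against DTL2 gave 1 higher (Akr1b3) and 2 lower (Sord and Slc38a2), with 9.58% of all genes called (6.08% higher and 3.50% lower). The proximal tubule sum was 13.3 to 41.7 TPM in DTL3 and 155.8 to 587.9 TPM in DTL2, and the leukocyte sum 14.7 to 20.3 TPM and 173.6 to 205.7 TPM, and their part in the lower Sord and Slc38a2 was not tested. In the thick limb, MTAL against CTAL gave 1 member higher (Slc6a12), with 3.15% of all genes called (0.589% higher and 2.57% lower). Slc6a6, at -1.13 (SE 0.37, adjusted p = 0.0513 from limma), came close to a call there, and 10 of the fits that left out 1 mouse called it. Of these, only the fit without MTAL mouse 3 (-1.48) left out a mouse of either segment. In the others the difference stayed at -1.13. In the straight proximal tubule, PTS3 against PTS2 gave 0 called members by limma, with 4.70% of all genes called (0.755% higher and 3.94% lower). One member, Nfat5, had an unadjusted p under 0.05 there (0.50, SE 0.16, adjusted p = 0.0318).

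**Figure D4:**
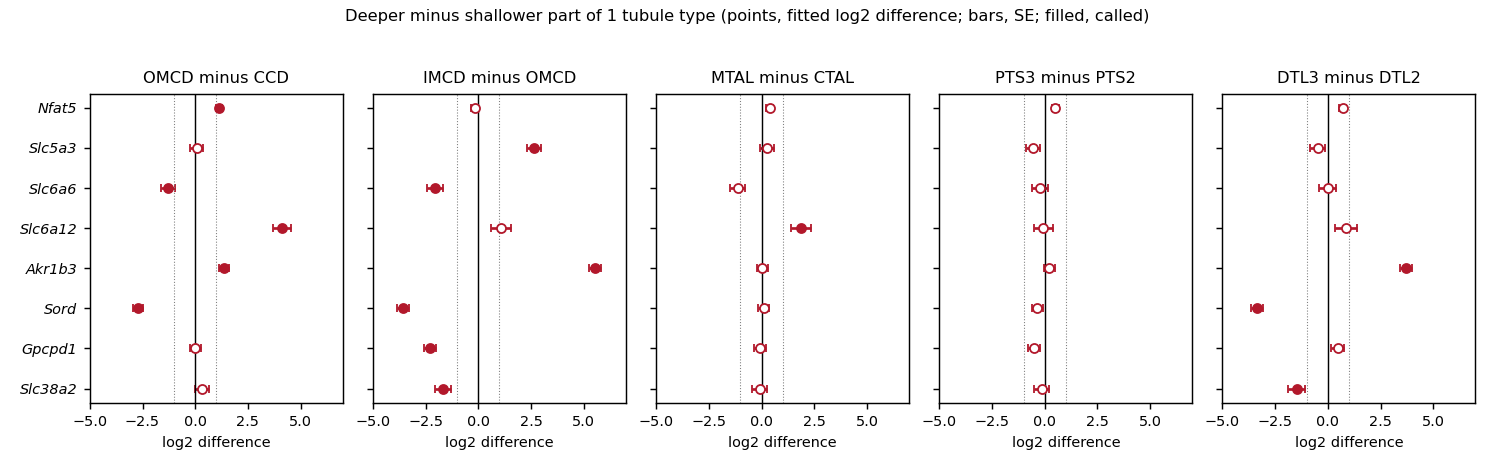
Fitted log2 difference between the deeper and the shallower part of 1 tubule type for the 8 genes; bars are the SE, filled points are called (adjusted p under 0.05 and a log2 difference of at least 1), dotted lines mark a difference of 1. Akr1b3 and Sord differ in the collecting duct and descending limb and sit at 0 in the thick limb.

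The steps themselves were compared between tubule types, as differences of log2 differences by limma over 16 pairs of a gene and a comparison. From cortex to outer medulla, the collecting duct (OMCD minus CCD) and the thick limb (MTAL minus CTAL) differed by 2.24 (SE 0.62, adjusted p = 0.0135) for Slc6a12, by 1.35 (SE 0.35, adjusted p = 0.00745) for Akr1b3 and by -2.83 (SE 0.36, adjusted p = 1.15e-07) for Sord, where 8.12% of all genes were called. From outer to inner medulla, the collecting duct (IMCD minus OMCD) and the descending limb (DTL3 minus DTL2) differed by 3.13 (SE 0.50) for Slc5a3, 1.80 (SE 0.39) for Akr1b3, -2.08 (SE 0.56) for Slc6a6 and -2.78 (SE 0.42) for Gpcpd1, where 22.0% of all genes were called. Nfat5 differed by 0.74 (adjusted p = 0.0248) and -0.88 (adjusted p = 0.00741) in these comparisons, both under the size threshold.

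Within the inner medulla, ATL against DTL3 gave 2 higher (Akr1b3 and Slc38a2) and 1 lower (Slc6a6) of the 8, with 14.6% of all genes called (2.86% higher and 11.8% lower). The Akr1b3 difference of 1.53 (SE 0.27, adjusted p = 1.6e-05 from limma) became 0.77 after quantile normalization. That of Slc38a2, at 1.23 (SE 0.37, adjusted p = 0.00937), became 0.82 without DTL3 mouse 1, 0.96 without ATL mouse 4 and 0.73 with ATL mice 2 and 3 alone. IMCD against ATL gave 1 higher (Slc5a3, 1.22, SE 0.34, adjusted p = 0.00471 from limma) and 4 lower (Nfat5, Sord, Gpcpd1 and Slc38a2), with 20.5% of all genes called (5.53% higher and 14.9% lower). Leaving out ATL mouse 2 or IMCD mouse 2 took the Slc5a3 difference to 0.97 or 0.99, ATL mice 4 and 6 alone took it to 0.73 (adjusted p = 0.105), and leaving out ATL mouse 4 took Gpcpd1 from -1.15 to -0.97. Gpcpd1 also lost its call there with quantile normalization (-0.75), with a pseudocount of 5 (-0.80), with ATL mice 2 and 3 alone (-0.80) and, just under the size threshold, with the median ratio. The Sord difference in IMCD minus ATL, -1.997, became -0.75 with a pseudocount of 5. Slc6a6 in IMCD minus ATL was not called (0.37, SE 0.38, adjusted p = 0.475 from limma). With ATL mice 2 and 3 alone it was called at 1.28 (adjusted p = 0.00829), and with ATL mice 4 and 6 alone it was -0.55. From the thick to the thin ascending limb, ATL against MTAL gave 5 higher (Nfat5, Slc6a6, Slc6a12, Akr1b3 and Slc38a2) and 2 lower (Slc5a3 and Sord), with 28.1% of all genes called (22.6% higher and 5.43% lower). In that comparison Akr1b3 had a difference of 8.05 (SE 0.27, adjusted p = 2.85e-27), a 278-fold ratio of means. Slc6a6 there was 1.27 (SE 0.38, adjusted p = 0.00615), and was 0.81 without ATL mouse 4, 0.78 without MTAL mouse 1, 0.35 with ATL mice 2 and 3 alone, 0.67 after quantile normalization (adjusted p = 0.155), 0.93 with the median ratio and 0.78 with a pseudocount of 5. Slc38a2 there was 1.35 (SE 0.37, adjusted p = 0.00286). It was 0.97 without MTAL mouse 3 (adjusted p = 0.0542), 0.85 with ATL mice 2 and 3 alone (adjusted p = 0.159) and 0.93 after rescaling by the median ratio. The endothelial sum was 153.4 to 248.0 TPM in ATL, 655 to 1619 TPM in DTL3, 21.6 to 304.4 TPM in IMCD and 156 to 336 TPM in MTAL. Receptor genes numbered 20 to 703 in ATL, 504 to 556 in DTL3, 3 to 25 in IMCD and 1 to 2 in MTAL. The part of both in the differences between these segments was not tested.

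The other enzymes of osmolyte synthesis and breakdown, a list of 14 genes, were 4 higher and 4 lower in inner medulla than in cortex, where 16.6% of all genes were called higher and 5.11% lower, with a list median of 0.29 against 0.45 for all genes. Akr1b8, a relative of aldose reductase, was higher by 2.95 (SE 0.16) in inner medulla and by 4.45 (SE 0.30) in IMCD than in CCD, where its mice had 56.4 to 77.5 TPM and 1.51 to 3.06 TPM. Miox, which degrades myo-inositol and marks the proximal tubule, was lower in inner medulla by -4.81 (SE 0.31). Impa2, a myo-inositol monophosphatase, was lower in IMCD than in CCD by -4.88 (SE 0.33), and so was Cdo1, the cysteine dioxygenase on the path to taurine, by -4.66 (SE 0.26). Cdo1 in inner medulla minus cortex was -0.03 (SE 0.14, adjusted p = 0.846 from limma). Among 5 other carriers, none was higher and 2 were lower in inner medulla than in cortex, against the same 16.6% and 5.11% of all genes. Slc5a11, a second sodium-coupled myo-inositol carrier, was lower by -2.03 (SE 0.17), which became -0.08 without the proximal segments. Slc6a13 was lower by -1.24 (SE 0.20), which turned to 0.87 without them. In the collecting duct, Slc38a1 was lower in IMCD than in OMCD by -1.46 (SE 0.17), and Slc2a13, a proton-coupled myo-inositol carrier, was higher in OMCD than in CCD by 1.12 (SE 0.25), from 0.07 to 0.19 TPM in CCD to 1.08 to 1.85 TPM in OMCD. With a pseudocount of 5 these became -0.59 and 0.33, and with quantile normalization -0.63 and 0.30. The Slc2a13 difference was 0.91 after rescaling by the median ratio. Receptor genes at 1 TPM or more numbered 76 to 253 in OMCD and 1 to 2 in CCD. The part of this background in the Slc2a13 difference was not tested.

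Of the 5 subunits of the volume-regulated anion channel, which lets osmolytes out of swollen cells, 1 was higher in inner medulla than in cortex (Lrrc8e, 1.84, SE 0.17), a share near the 16.6% of all genes called higher there. In IMCD against OMCD, Lrrc8d was higher by 1.61 (SE 0.25), while Lrrc8c (-1.92, SE 0.43) and Lrrc8e (-1.89, SE 0.34) were lower. Of the 4 calcineurin-dependent NFAT relatives, Nfatc2 was higher in inner medulla than in cortex by 1.62 (SE 0.098), with 26.7 to 31.9 TPM in DTL3 and 31.9 to 35.4 TPM in ATL. It was lower in IMCD than in OMCD by -1.65 (SE 0.19), as was Nfatc4 by -1.59 (SE 0.32). In IMCD minus OMCD 3.40% of all genes were called higher and 15.2% lower. With a pseudocount of 5 the IMCD minus OMCD differences of Lrrc8c (-0.73), Nfatc2 (-0.89) and Nfatc4 (-0.56) were not called. After quantile normalization those of Nfatc2 (-0.87) and Nfatc4 (-0.81) were not called either. Of 11 genes reported to act on Nfat5, 3 were higher and none lower in inner medulla than in cortex, against 16.6% and 5.11% of all genes. They include Dhx9, an RNA helicase (1.81, SE 0.14), and Akap13, an anchoring protein (1.04, SE 0.17), which fell short of the size threshold after rescaling by the median ratio (0.56), after quantile normalization (0.67), with the glomerulus counted as cortical (0.56), with ATL mice 2 and 3 alone (0.60), with a pseudocount of 5 (0.85), with mice weighted equally (0.90), with the replicate block (0.96) and without ATL mouse 4 (0.87) or ATL mouse 6 (0.92). The kinase Fyn was lower in IMCD than in CCD by -3.38 (SE 0.34) and the phospholipase Plcg1 by -1.46 (SE 0.23).

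The 9 chaperones and stress proteins of the hypertonic medulla moved most as a list, with 7 higher and 1 lower in inner medulla than in cortex and a list median of 3.40 against 0.45 for all genes, of which 16.6% were called higher and 5.11% lower. The small heat shock protein Cryab, at 9021 to 11870 TPM in ATL, was higher by 6.92 (SE 0.11), S100a4 by 5.65 (SE 0.22) and Hspb1 by 4.48 (SE 0.13). Serpinh1, a collagen chaperone, was lower by -3.19 (SE 0.16). In OMCD against CCD 0 of the 9 were called by limma, with 5 at an unadjusted p under 0.05, where 12.1% of all genes were called. In IMCD against OMCD 6 were higher and 1 lower, against 3.40% and 15.2% of all genes. In DTL3 against DTL2 only 2 were higher (Cryab and S100a4) and 2 lower (Hspb1 and Serpinh1), against 6.08% and 3.50% of all genes. The list median there was 0.22, near the 0.20 of all genes. The summed interstitial cell markers were 1.02 to 9.34 TPM in IMCD, 10.6 to 19.3 TPM in DTL3 and 2.72 to 75.7 TPM in ATL. In the cortex they were 56.7 to 64.6 TPM in CCD, 62.7 to 79.7 TPM in CNT and 12 to 47 TPM in CTAL. They were 2.7 to 9.6 TPM in DCT, 1.6 to 2.8 TPM in PTS1 and 0.61 to 4.12 TPM in PTS2. The part of these cells in the Serpinh1 difference was not tested. The summed early-response genes ran from 1164 to 7398 TPM in CCD, 288.0 to 1239 TPM in OMCD, 433.5 to 1242 TPM in IMCD, 87.9 to 491.0 TPM in ATL and 140.2 to 7553 TPM in DTL3, and their part in the chaperone differences was not tested.

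Over the 15 group means of log2(TPM + 1), Nfat5 correlated with Slc6a12 at r = 0.87, with Akr1b3 at 0.77, with Slc38a2 at 0.74, with Slc5a3 at 0.57, with Slc6a6 at 0.14, with Gpcpd1 at -0.00 and with Sord at -0.84. The median r of Nfat5 with all 11853 other candidate genes was 0.49, so a positive r with Nfat5 was common in these groups, which share libraries, scaling and background. The genes most like each member were sought among those with at least 10 TPM in their highest group. They were Hnrnpa1 (0.97), Myo9a (0.97) and Ercc6 (0.97) for Nfat5, and Ranbp3l (0.95), Pdcd5 (0.94) and Pax2 (0.93) for Slc6a12. For Akr1b3 they were Rnf19b (0.96) and Lamb3 (0.95), and for Sord Fggy (0.95), Fcgrt (0.94) and Adk (0.94). For Slc5a3 they were Rabac1 (0.95), Rwdd4a (0.91) and Dcun1d1 (0.91), and for Slc6a6 Bin1 (0.91), Zfp101 (0.89) and Ror1 (0.88). For Slc38a2 they were Gga3 (0.96), Ttc3 (0.96) and Fam53b (0.95), and for Gpcpd1, whose pattern is led by the glomerulus, Mgp (0.89), Micu2 (0.89) and Xylt2 (0.88).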

How the data were processed

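Polyadenylated RNA of microdissected segments was extracted with Direct-zol kits, converted to cDNA with the SMARTer V4 ultra-low-input kit and made into libraries with Nextera XT, per the labels' protocols. The authors deposited TPM for 54532 genes. The submitters' processing notes name STAR 2.5.4a, RSEM 1.3.0, Cell Ranger 3.0.2 and Seurat, without saying which step each served. The genome build is not given in the sources used here. Each of the 93 columns summed to between 999998.6 and 1000190.3 TPM. For 1 column of segment PTS2 no title fits, so it entered as an unnumbered mouse of that segment. The 3 single-cell samples were not analysed here.

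Printed levels are mean TPM over the pieces of a mouse. For the tests, log2(TPM + 1) was averaged over pieces, since TPM are not counts. Genes with at least 1 TPM in at least 3 mice were fitted with limma 3.58.1 in R 4.3.3 (lmFit and trended eBayes) over the 15 groups at once, so that they pool their spread. Fold changes on this scale understate the change of low genes. Tests were two-sided, with Benjamini-Hochberg adjustment over all 33793 genes in each comparison. Zones weighted their segments equally. Neighbours in an order of groups were said to differ at an adjusted p under 0.05. Nothing states that equal mouse numbers in different segments mark 1 animal, and p-values measure only the spread between these units. On simulated data with 200 genes changed by 2 log2 units, 94.5% were recovered in MTAL minus CTAL and 100% in inner medulla minus cortex. The changed genes had a mean log2(TPM + 1) over 2, and the simulated noise was normal with 1 SD per gene in all groups. Recovery of low genes, of smaller changes and under unequal spread between groups was therefore not gauged.

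The members and gene lists were chosen with earlier results of these data known. List genes were named by rule, at most 4 per list with the largest called differences in inner medulla minus cortex and the collecting duct comparisons. Likeness is the Pearson r of group means, with the 3 highest genes named (1 of those for Akr1b3 is not reported here), passing over Gm-number, Rik, mitochondrial, ribosomal protein and pseudogene names. Promoters came from RefSeq on GRCm38.p6, where 5 of the 8 members were matched. Exon overlaps came from GENCODE M21. Other steps ran in Python 3.11.15, pandas 2.3.3, numpy 2.4.6 and matplotlib 3.10.9. Settings varied were the pseudocount (0.1 or 5), the filter (5 TPM, or none), rescaling by the median ratio over 11566 genes, quantile normalization, averaging pieces before the log, eBayes without trend, a replicate block on mouse number, ATL mice 2 and 3 or mice 4 and 6 alone, a fit without the glomerulus and DTL1, other definitions of the zones and leaving out each mouse in turn.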

Additional observations from a re-analysis of the deposited data

Results flagged for a closer look

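A mouse far from the others of its group was looked for in the 40 combinations of a member with a group of 4 or 5 mice, where chance flags about 1 in 20. It was found in 2. In ATL, mouse 6 had 71.37 TPM of Nfat5, above 47.5 to 50.3 TPM in the other 3 mice. Also in ATL, mouse 4 had 117.69 TPM of Slc5a3, above 27.3 to 40.0 TPM in the other 3. These are the 2 ATL mice with 601 and 703 receptor genes at 1 TPM or more, against 33 and 20 in the others.

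The step from cortex to outer medulla was compared between the collecting duct (OMCD minus CCD) and the thick limb (MTAL minus CTAL) by limma as a difference of log2 differences. It was larger in the collecting duct by 2.24 for Slc6a12 (adjusted p = 0.0135) and by 1.35 for Akr1b3 (adjusted p = 0.00745), and it was -2.83 for Sord (adjusted p = 1.15e-07). Such a difference was called for 8.12% of all genes. Of these 4 segments OMCD stood apart in receptor-gene background, with 76 to 253 such genes against 1 to 2 in CCD, 1 to 2 in MTAL and 2 to 6 in CTAL, and its part in these differences was not tested.

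The step from outer to inner medulla was compared in the same way between the collecting duct (IMCD minus OMCD) and the long descending limb (DTL3 minus DTL2). The collecting duct minus the descending limb was 3.13 for Slc5a3 (adjusted p = 4.04e-06), 1.80 for Akr1b3 (adjusted p = 0.000505), -2.08 for Slc6a6 (adjusted p = 0.00438) and -2.78 for Gpcpd1 (adjusted p = 1.18e-06), where 22.0% of all genes were called. These segments also differed in receptor-gene background, with 76 to 253 such genes in OMCD, 3 to 25 in IMCD, 274 to 389 in DTL2 and 504 to 556 in DTL3. It fell along the collecting duct step and rose along the descending limb step. Its part in these differences was not tested.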

How the results depend on the processing

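Of the 96 differences of a member, 56 kept their call and direction under all 16 other settings and all 53 fits without 1 mouse. The number of members differing among the 15 groups was 8 throughout. For MTAL minus CTAL the members called numbered 2 with a pseudocount of 0.1, with the filter at 5 TPM and with ATL mice 2 and 3 or mice 4 and 6 alone, 0 with a pseudocount of 5, and 1 to 2 without single mice. For PTS3 minus PTS2 the count was 1 with a pseudocount of 0.1, and for IMCD minus ATL it was 3 with a pseudocount of 5, against 5.

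Directions turned in these cases, of which only Slc6a13 had been called. With the median ratio, Nfat5 in IMCD minus OMCD was 0.14, Slc5a3 in OMCD minus CCD -0.12, Gpcpd1 in OMCD minus CCD -0.18 and Slc38a2 in inner minus outer medulla -0.14. With quantile normalization these were 0.28, -0.13, -0.10 and -0.16, Slc6a6 in PTS3 minus PTS2 was 0.01, Gpcpd1 in MTAL minus CTAL 0.09, and Slc38a2 0.02 in MTAL minus CTAL and 0.06 in PTS3 minus PTS2. Slc38a2 in inner minus outer medulla was -0.04 with a pseudocount of 5, -0.12 with ATL mice 2 and 3 alone and -0.76 without proximal segments, where Slc38a2 in inner medulla minus cortex was -0.03 and the called Slc6a13 difference became 0.87. Without DTL1, with or without the glomerulus, Slc6a6 in outer medulla minus cortex was -0.06. With ATL mice 2 and 3 alone, ATL minus DTL3 was -0.18 for Slc5a3 and -0.24 for Sord, and with mice 4 and 6 alone, IMCD minus ATL was -0.55 for Slc6a6 and 0.02 for Slc6a12. Without single mice, the ranges that crossed 0 were -0.04 to 0.12 (Slc5a3, OMCD minus CCD), -0.97 to 0.04 (Slc5a3, DTL3 minus DTL2), -0.13 to 0.56 (Slc5a3, ATL minus DTL3), -0.46 to 0.05 (Slc6a6, PTS3 minus PTS2), -0.27 to 0.34 (Slc6a6, DTL3 minus DTL2), -0.22 to 0.82 (Slc6a6, IMCD minus ATL), -0.01 to 0.07 (Akr1b3, MTAL minus CTAL), -0.06 to 0.22 (Sord, MTAL minus CTAL), -0.32 to 0.38 (Sord, ATL minus DTL3), -0.18 to 0.21 (Gpcpd1, OMCD minus CCD), -0.05 to 0.18 (Slc38a2, inner minus outer medulla), -0.48 to 0.29 (Slc38a2, MTAL minus CTAL) and -0.67 to 0.25 (Slc38a2, PTS3 minus PTS2). The cause of these turns was not tested.

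Nothing states that equal mouse numbers pair the samples, and they were not treated as pairs. The deviations of 290 pairs with the same number had a median r of 0.0002, with 19 over 0.1, and those of 968 pairs with different numbers 0.0004, with 31 over 0.1. With the replicate block, Nfat5 in IMCD minus CCD was called at 1.01, Slc6a6 in ATL minus MTAL (0.93) and Gpcpd1 in IMCD minus ATL (-0.94) were not, and directions turned for Slc6a6 in PTS3 minus PTS2 (0.04), Sord in ATL minus DTL3 (-0.12) and Gpcpd1 in MTAL minus CTAL (0.08).

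The counts of genes called moved more. With a pseudocount of 5 against 1 they were 2918 against 7341 (inner medulla minus cortex), 774 against 3254 (outer medulla minus cortex), 1446 against 2702 (inner minus outer), 839 against 4095 (OMCD minus CCD), 2826 against 6284 (IMCD minus OMCD), 3195 against 5508 (IMCD minus CCD), 492 against 1066 (MTAL minus CTAL), 763 against 1588 (PTS3 minus PTS2), 1444 against 3237 (DTL3 minus DTL2), 3530 against 9487 (ATL minus MTAL), 1965 against 4948 (ATL minus DTL3) and 2603 against 6912 (IMCD minus ATL). With 0.1 they were 18277, 13772, 5336, 11271 and 11665 in the first 5 of these, 2640 in PTS3 minus PTS2, 14380 in ATL minus MTAL and 9246 in ATL minus DTL3. Quantile normalization gave 4585, 1602, 1593 and 5873 in inner medulla minus cortex, outer medulla minus cortex, OMCD minus CCD and ATL minus MTAL. Outer medulla minus cortex had 1959 with the median ratio, 6250 without proximal segments, 1431 with the glomerulus as cortical, 1224 without DTL1 and 1227 without DTL1 and the glomerulus. ATL mice 2 and 3 alone gave 5467 (ATL minus MTAL) and 10461 (ATL minus DTL3), and mice 4 and 6 alone 16003, 7906 and, in IMCD minus ATL, 13971.

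The share of calls that were higher, as deposited, with the median ratio and with quantile normalization, was 76.5%, 51.4% and 41.6% in inner medulla minus cortex, 83.9%, 57.0% and 39.2% in outer medulla minus cortex, 85.7%, 74.7% and 43.6% in OMCD minus CCD, 18.3%, 35.0% and 54.1% in IMCD minus OMCD, 63.5%, 48.6% and 43.3% in DTL3 minus DTL2, 80.7%, 67.6% and 43.3% in ATL minus MTAL, 19.5%, 36.1% and 42.5% in ATL minus DTL3 and 16.1%, 30.8% and 36.6% in PTS3 minus PTS2. With quantile normalization it was 58.4% against 27.0% in IMCD minus ATL, 49.1% against 38.2% in IMCD minus CCD and 29.4% against 18.7% in MTAL minus CTAL, and with the median ratio 35.0% against 46.0% in inner minus outer medulla. Over all settings but the fits without 1 mouse, member calls were lost 34 times and gained 22 times. Read depth is unknown, so low values such as Sord in IMCD carry no interval.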
